A study of Homo sapiens with 15 samples.

Results

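The HIF pathway loci of renal carcinoma were the 10 genes HIF1A, EPAS1, ARNT, EGLN3, VEGFA, ANGPTL4, CA9, SLC2A1, NDUFA4L2 and CCND1, taken by name from the 20033 protein-coding genes of GENCODE v44. Each locus was the gene body plus 20 kb on either side, and these windows held 233 of the 295008 merged ATAC-seq regions that had a peak in at least 2 of 15 libraries. ATAC-seq, in which the Tn5 transposase cuts and tags open chromatin, had been run on RPTEC hTERT, human cells of the renal proximal tubule epithelium immortalised with telomerase and kept in G418. The 5 groups had 3 libraries each. WT cells were the parental line. KO1 and KO2 were 2 single-cell clones in which Cas9 and a guide to exon 3 of SETD2, the enzyme that trimethylates histone H3 at lysine 36, had left frameshifts in both alleles. Rescue1 and Rescue2 were clones of KO cells transduced with a lentivirus carrying full-length human SETD2 with a 3xFLAG tag and selected with blasticidin, and their names in the study tie them to KO2. Each genotype thus rested on 1 line or 2 clones, nothing stated that replicate libraries came from separate cultures, and p-values measure the spread between these libraries.

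Hypoxia-inducible factors are pairs of an oxygen-sensitive alpha subunit, HIF-1 alpha (HIF1A) or HIF-2 alpha (EPAS1), and the constitutive partner ARNT. With oxygen present, prolyl hydroxylases such as the EGLN3 product mark the alpha subunits for capture by the VHL ubiquitin ligase and for degradation. In clear cell renal carcinoma VHL is usually lost first and SETD2 later, whereas RPTEC cells carry an intact VHL, so these libraries ask whether peaks at HIF genes differ with SETD2 when VHL is present. The targets considered here serve vessels and lipid handling (VEGFA, ANGPTL4), pH and energy metabolism (CA9, SLC2A1, NDUFA4L2) and the cell cycle (CCND1).

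The measured objects were the peak lists deposited for each library, which held 197527 to 266011 peaks and covered 49.4 to 65.2 Mb. They carry no read totals, and the depth metrics that the paper summarises in a supplementary table were not used here. In a bulk library a region open in fewer cells and a region less open in each cell cannot be told apart. Promoters were occupied in all 15 libraries for 4 of 6 epithelial markers and for the kidney markers PAX8 and PAX2, while HNF4A, CUBN, SLC34A1 and AQP1 of the mature proximal tubule had a promoter peak in none. The other epithelial markers moved with genotype: KRT7 had a promoter peak in 3 of 3 WT, 0 of 6 KO and 0 of 6 rescue libraries, and CDH1 in 3 of 3, 1 of 6 and 0 of 6. Of the fibroblast markers DCN had one in 0 of 3 WT, 6 of 6 KO and 1 of 6 rescue libraries, and LUM in 3 of 3, 6 of 6 and 3 of 6. The part of these marker differences in the results on the HIF loci was not tested. Of 5 immune markers 4 were at 0 in every library. Of 5 endothelial markers PECAM1, TEK and VWF were at 0 and CDH5 and KDR were occupied in all 15. Of 5 fibroblast markers 3 were occupied in all 15. Peak lists cannot show the SETD2 frameshifts. Outside the promoter, 341 to 406 coding bases of SETD2 lay under peaks in WT, 474 to 647 in KO and 606 to 1007 in rescue libraries, of 7692 coding bases.

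The sequences of 6 gained regions are printed, 1 of them chosen after its values were seen for its loss in rescue, because they carry the all-or-none differences described further on, that is, peaks in every KO library and in no WT library. They follow on the plus strand of hg38, up to 300 bases around the summit, with matches to the HIF binding core in capitals. The core was searched as ACGTG and GCGTG on both strands, which reads CACGT and CACGC where the match lies on the other strand. They come from the sequence upstream of SLC2A1 (chr1:42978397-42978696), exon 1 of ANGPTL4 (chr19:8364331-8364557) and 4 places far upstream of the EGLN3 start (chr14:34101941-34102160, chr14:34212622-34212920, chr14:34361745-34362010 and, gained in KO and lost in rescue, chr14:34164266-34164565).
SLC2A1 upstream: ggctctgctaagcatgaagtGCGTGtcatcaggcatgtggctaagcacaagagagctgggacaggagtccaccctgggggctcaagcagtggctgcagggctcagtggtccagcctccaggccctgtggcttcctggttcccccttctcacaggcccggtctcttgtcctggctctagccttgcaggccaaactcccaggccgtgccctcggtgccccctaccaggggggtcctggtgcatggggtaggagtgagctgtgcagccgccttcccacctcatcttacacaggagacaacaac
ANGPTL4 exon 1: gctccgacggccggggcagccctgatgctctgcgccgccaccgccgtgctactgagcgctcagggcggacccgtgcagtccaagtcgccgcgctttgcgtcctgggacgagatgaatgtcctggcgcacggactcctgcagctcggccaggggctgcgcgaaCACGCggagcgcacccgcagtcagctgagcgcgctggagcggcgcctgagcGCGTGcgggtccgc
EGLN3 upstream, 151.0 kb: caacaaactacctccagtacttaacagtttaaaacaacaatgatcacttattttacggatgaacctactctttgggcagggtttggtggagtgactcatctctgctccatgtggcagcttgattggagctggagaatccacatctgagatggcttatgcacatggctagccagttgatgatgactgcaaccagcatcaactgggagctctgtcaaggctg
EGLN3 upstream, 261.7 kb: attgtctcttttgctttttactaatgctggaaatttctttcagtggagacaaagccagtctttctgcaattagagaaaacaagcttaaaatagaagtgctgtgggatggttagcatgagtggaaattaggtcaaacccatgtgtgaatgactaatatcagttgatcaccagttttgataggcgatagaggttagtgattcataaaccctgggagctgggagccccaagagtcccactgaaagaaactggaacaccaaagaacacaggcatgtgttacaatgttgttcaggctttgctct
EGLN3 upstream, 410.8 kb: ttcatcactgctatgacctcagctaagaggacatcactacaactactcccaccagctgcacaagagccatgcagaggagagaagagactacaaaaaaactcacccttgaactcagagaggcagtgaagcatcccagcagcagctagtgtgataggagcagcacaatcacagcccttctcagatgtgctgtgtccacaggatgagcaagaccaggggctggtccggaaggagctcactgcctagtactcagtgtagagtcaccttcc
EGLN3 upstream, 213.3 kb: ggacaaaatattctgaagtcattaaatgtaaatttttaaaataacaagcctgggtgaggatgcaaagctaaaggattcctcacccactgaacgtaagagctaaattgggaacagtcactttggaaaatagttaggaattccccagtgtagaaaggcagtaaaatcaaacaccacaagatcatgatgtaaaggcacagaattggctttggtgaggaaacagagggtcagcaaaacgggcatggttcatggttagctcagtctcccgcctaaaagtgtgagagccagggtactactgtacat
The ANGPTL4 sequence holds 2 cores, the SLC2A1 sequence holds 1, and the 4 EGLN3 sequences hold none. Another EGLN3 gain, not printed (chr14:34170998-34171181), holds 1. In windows of 300 bases around the summit, a core was found in 99 of the 233 regions at the 10 loci (42.5%), against 91027 of all 295008 merged regions (30.9%). Among the 17 regions at these loci that were gained or lost in KO 7 held a core (41.2%), against 28.3% of the 21426 such regions genome-wide. The base composition of these sets was not compared, and a match describes letters, not binding.

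The 250 bases upstream of the gene start are shown for the member promoters that hold a core, from RefSeq on GRCh38.p14 and in the direction of the gene. RefSeq promoters were matched for 7 of the 10 genes, and HIF1A (chr14:61695263-61695512), EPAS1 (chr2:46297157-46297406), CA9 (chr9:35673678-35673927) and ANGPTL4 (chr19:8363905-8364154) held 1 core each. At least 1 core was found in 43.2% of the 35116 RefSeq promoters of that length.
HIF1A promoter: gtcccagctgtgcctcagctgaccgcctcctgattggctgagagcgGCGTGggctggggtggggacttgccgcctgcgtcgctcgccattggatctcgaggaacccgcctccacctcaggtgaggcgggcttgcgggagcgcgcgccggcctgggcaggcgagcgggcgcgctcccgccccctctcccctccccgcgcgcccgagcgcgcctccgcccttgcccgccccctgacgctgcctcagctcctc
EPAS1 promoter: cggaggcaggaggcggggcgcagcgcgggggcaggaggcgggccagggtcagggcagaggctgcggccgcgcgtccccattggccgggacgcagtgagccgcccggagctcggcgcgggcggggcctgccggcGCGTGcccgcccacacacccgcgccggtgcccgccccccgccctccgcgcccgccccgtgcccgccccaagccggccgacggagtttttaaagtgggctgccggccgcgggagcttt
CA9 promoter: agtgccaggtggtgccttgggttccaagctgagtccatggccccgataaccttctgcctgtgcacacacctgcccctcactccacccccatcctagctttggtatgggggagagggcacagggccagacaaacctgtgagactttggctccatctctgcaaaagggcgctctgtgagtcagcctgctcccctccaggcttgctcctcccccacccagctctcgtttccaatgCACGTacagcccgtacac
ANGPTL4 promoter: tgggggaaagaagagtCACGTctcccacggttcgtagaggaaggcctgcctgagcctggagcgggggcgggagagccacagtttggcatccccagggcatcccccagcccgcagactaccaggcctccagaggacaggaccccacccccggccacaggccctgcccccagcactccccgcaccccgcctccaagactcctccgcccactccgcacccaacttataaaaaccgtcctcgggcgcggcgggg
SLC2A1, ARNT and EGLN3 had no core in these windows, and VEGFA, CCND1 and NDUFA4L2 were not matched. The CA9 core lies near the end of the printed window, next to the gene start; no library of any group had a peak within 1 kb of that start, whereas the promoters of HIF1A and EPAS1 were under a peak in all 15 libraries.

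Of the 233 regions 97 (41.6%) had a peak in all 15 libraries, against 35.6% of all merged regions. The regions numbered 74 at EGLN3, 34 at EPAS1, 26 at SLC2A1, 23 at HIF1A, 17 at VEGFA, 14 at ANGPTL4, 13 each at CCND1 and NDUFA4L2, 11 at CA9 and 8 at ARNT. The EGLN3 gene record runs far upstream of the canonical start (window of 579 kb), and 57 of its regions lie upstream of the canonical start but inside that record. Per kb of window, the mean length under peaks over the 15 libraries ran from 18.4 bases at ARNT and 25.0 at EGLN3 to 83.8 at CA9 and 103.1 at SLC2A1, where the CA9 window also holds 4 other protein-coding genes and the NDUFA4L2 window 5.

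The total length under peaks at the 10 loci was compared between WT and KO. It was tested on log2(bases + 200) with limma over the 5 groups, the 3 WT against the 6 KO libraries, with Benjamini-Hochberg adjustment over 19541 protein-coding loci. Of all loci 30.0% passed an adjusted p of 0.05 (16.2% higher and 13.8% lower in KO), and of the 10 members 1 did, NDUFA4L2, which was lower. An unadjusted limma p under 0.05 was found for 4 members, ARNT and EGLN3 (higher in KO) and VEGFA and NDUFA4L2 (lower). The median log2 difference was 0.066 for the members and -0.007 for all loci, and the members' median joins these opposite directions.

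Among the factors themselves, HIF1A (ENSG00000100644.17, chr14:61695513-61748259) had a covered length of 4199 ± 530.7 bases in the WT libraries (SD, n = 3), 4358 ± 323.4 in the KO libraries (n = 6) and 4478 ± 482.0 in the rescue libraries (n = 6), and its groups overlapped throughout. EPAS1 (ENSG00000116016.14, chr2:46293667-46386697) had 5097 ± 368.4, 5400 ± 319.9 and 5859 ± 319.3 bases in the same order, with a log2 difference of 0.08 (SE 0.07, limma adjusted p = 0.413) between KO and WT. ARNT (ENSG00000143437.21, chr1:150809713-150876708) had 1913, 1494 and 1822 bases in WT, 1978, 2084 and 1947 in KO1, and 2011, 2177 and 2037 in KO2. Every KO library stood above every WT library, the log2 difference was 0.21 (SE 0.09), and the call was missed at a limma adjusted p of 0.067. The two-sided exact permutation test over libraries gave p = 0.0238, the smallest this design allows, which became 0.0941 after adjustment over all loci. ARNT was called without WT replicate 1 (0.27, limma adjusted p = 0.0337) and with 5 kb flanks (0.39, limma adjusted p = 0.00172).

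The ARNT region with the largest difference in bases between KO and WT lay over coding exon 7 (chr1:150836183-150836727) and was singled out after its values were seen. It held 103, 0 and 0 bases under peaks in the WT libraries, 388 to 461 in the 6 KO libraries and 341 to 524 in the 6 rescue libraries. WT did not overlap with KO or rescue, and the peak ranked high where present: by fold enrichment it stood at percentile 91.4 to 99.3 of its own library in every KO and rescue library and at 25.9 in the 1 WT library that had it. The ARNT promoter, by contrast, was under a peak everywhere, at percentile 82.5 ± 1.44 in WT and 85.8 ± 4.40 in KO.

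EGLN3 (ENSG00000129521.15, chr14:33924227-34462774), the prolyl hydroxylase that is itself a HIF target, had 14685, 12615 and 13021 bases under peaks in WT, 14201, 14545 and 16037 in KO1, and 15449, 15602 and 16928 in KO2. The lowest KO1 libraries fell inside the WT range, while all KO2 libraries exceeded it, and the log2 difference of 0.20 (SE 0.08) had a limma adjusted p of 0.0552 (0.0222 without WT replicate 1). In the rescue libraries the locus had 12896, 12550 and 13014 bases in Rescue1 but 16157, 15838 and 12985 in Rescue2. Rescue1 lay near the lower WT libraries, and 2 Rescue2 libraries fell in the KO range. The log2 difference of -0.16 (SE 0.06) between rescue and KO was not called (limma adjusted p = 0.0557), nor was that of -0.22 (SE 0.09) between Rescue1 and Rescue2 (limma adjusted p = 0.209). The fall from KO was called scaled to the same total length under peaks (-0.21, 4.59e-07) and with 150000 peaks per library (-0.22, 0.00403). It was also called at a -log10 q of at least 3 (0.0378), with 50 kb flanks (0.0302), with Rescue1 alone (0.0147) and without Rescue2 replicate 1 (0.0371), each a limma adjusted p. With Rescue2 alone, against KO2 alone and with 5 kb flanks it was not.

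Of the vessel genes, VEGFA (ENSG00000112715.26, chr6:43770184-43786487), the main angiogenic factor of renal carcinoma, had 4087, 3936 and 3716 bases in WT, 3372, 3249 and 3347 in KO1, and 3204, 3387 and 3848 in KO2. Only KO2 replicate 3 reached into the WT range, and the log2 difference of -0.19 (SE 0.07) missed the call (limma adjusted p = 0.0502), which it passed without that library (-0.23, limma adjusted p = 0.0195) or scaled to the same total length under peaks (-0.30, limma adjusted p = 1.62e-05). It also passed with 150000 peaks per library (-0.46, 0.000198), 5 or 50 kb flanks (0.0405 and 0.00953) and a -log10 q of at least 3 (0.0302), each a limma adjusted p. Other pseudocounts or no filter on low loci gave 0.0434 to 0.0495. With KO1 or KO2 alone it was not called (limma adjusted p = 0.0568 and 0.176). Rescue did not move the covered length back: the locus had 3148, 2898 and 3199 bases in Rescue1 and 3425, 3348 and 2875 in Rescue2, all 6 below the lowest WT library. In a comparison of rescue with WT that was added after the values were seen, and in which 27.8% of all loci were called (23.6% higher and 4.17% lower), VEGFA had fallen by 0.30 on the log2 scale (SE 0.07, limma adjusted p = 0.00371) and EPAS1 had risen by 0.19 (SE 0.07, limma adjusted p = 0.0357). The EPAS1 call was lost without WT replicate 2 or 3, Rescue1 replicate 2 or 3 or Rescue2 replicate 1 or 2 (limma adjusted p = 0.0621 to 0.18), and scaled to the same total length under peaks it was 0.03 (limma adjusted p = 0.586). It was also lost with 150000 peaks per library (0.233), 5 or 50 kb flanks (0.171 and 0.0591), the replicate number as a block (0.0568) or no trend of the spread (0.0568), each a limma adjusted p.

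The VEGFA region with the largest difference in bases between KO and WT lay just downstream of the gene (chr6:43787038-43787995, 17.6 kb from the start), again singled out after its values were seen. It had 747, 764 and 626 bases under peaks in WT, 0, 92 and 157 in KO1, 224, 151 and 358 in KO2, and 84 to 269 in the 6 rescue libraries. WT stood apart from all other libraries, and a shorter peak remained in 5 of 6 KO and in all rescue libraries. The strongest VEGFA peak, 28.8 kb from the start (chr6:43798703-43799282), ranked between percentile 93.3 and 98.2 in all 15 libraries and measured 505.0 ± 22.6 bases in WT and 479.7 ± 50.5 in KO. ANGPTL4 (ENSG00000167772.12, chr19:8363289-8374370), which encodes an angiopoietin-like inhibitor of lipoprotein lipase, had 3178 ± 151.7 bases in WT, 3367 ± 235.0 in KO and 3371 ± 297.3 in rescue, without a call.

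**Figure D1:**
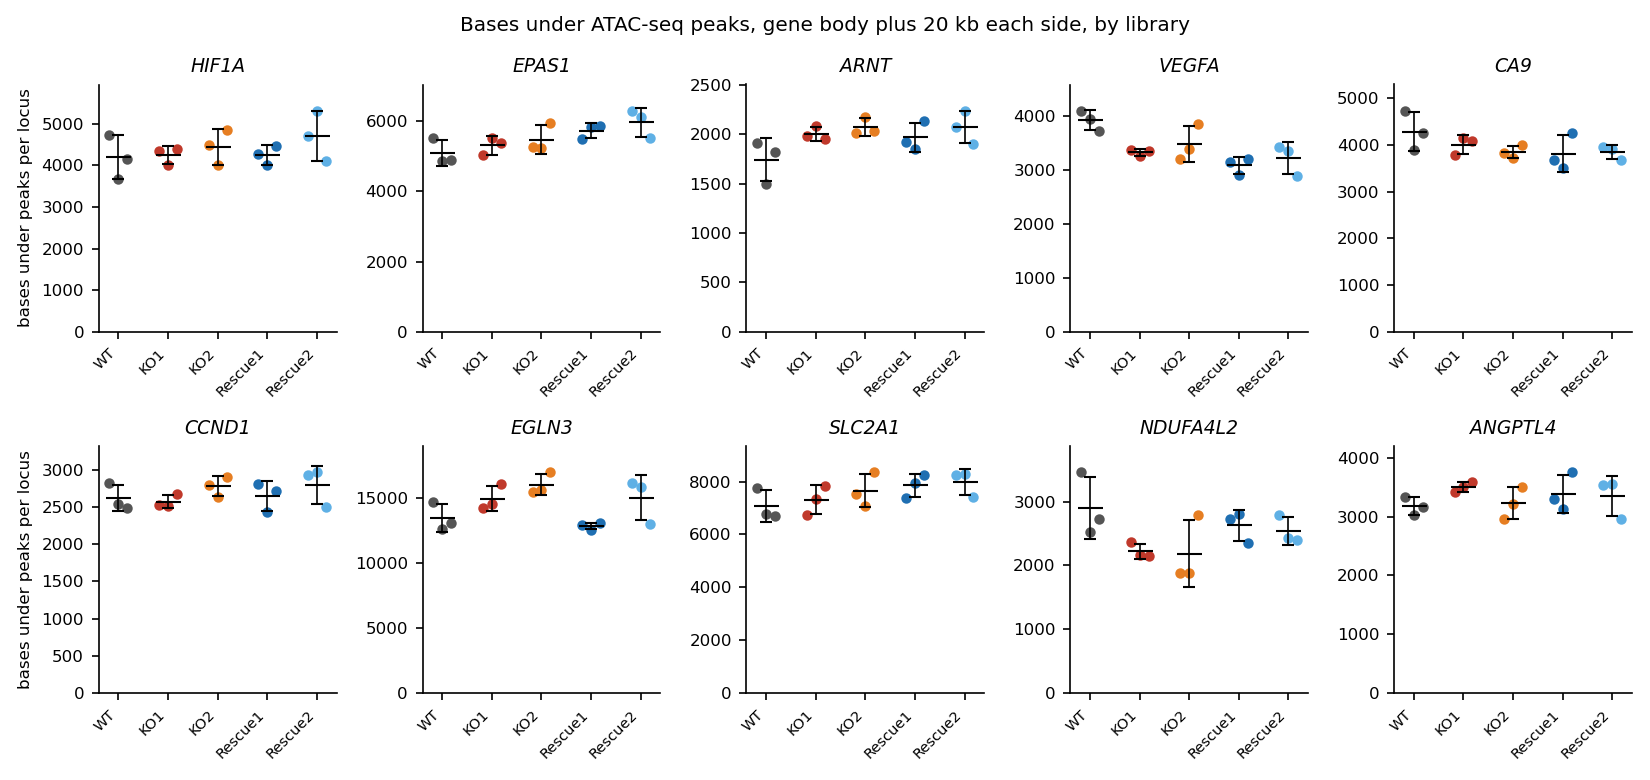
Bases under ATAC-seq peaks (y axis, from 0) at each of the 10 loci by group (x axis); each dot is a library and the bars are the mean and SD of 3 libraries. WT libraries of VEGFA (3716 to 4087) sit above all rescue libraries (2875 to 3425), and those of ARNT (1494 to 1913) below all KO libraries (1947 to 2177).

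Of the metabolic targets, NDUFA4L2 (ENSG00000185633.11, chr12:57234903-57240715), a mitochondrial protein that restrains respiration in renal carcinoma, was the member called between KO and WT. It had 3456, 2523 and 2721 bases in WT, 2359, 2159 and 2153 in KO1, and 1882, 1884 and 2784 in KO2, so that 5 of 6 KO libraries lay below the lowest WT library. It fell by 0.37 on the log2 scale (SE 0.11, limma adjusted p = 0.0114); the two-sided exact permutation test gave p = 0.0714. The call rested on WT replicate 1: without it the log2 difference was -0.24 (limma adjusted p = 0.134), and with 5 kb in place of 20 kb on either side it was -0.26 (limma adjusted p = 0.0787). In rescue the locus had 2729, 2806 and 2349 bases in Rescue1 and 2792, 2429 and 2396 in Rescue2, which was 0.22 above KO (SE 0.09, limma adjusted p = 0.052; 0.31 and limma adjusted p = 0.00306 without KO2 replicate 3).

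Among the 13 regions of the NDUFA4L2 window, the one whose occupancy differed most lay over a UTR exon of the neighbouring gene STAC3 (chr12:57243740-57243904), with a peak in 3 of 3 WT, 1 of 6 KO and 4 of 6 rescue libraries. Another region of the window had the largest difference in bases and was singled out after its values were seen. It had 343, 272 and 469 bases in WT, 151, 224 and 156 in KO1, and 0, 0 and 185 in KO2. WT and KO did not overlap there, and the rescue libraries, at 133 to 329 bases, overlapped with both. In the NDUFA4L2 gene record itself, the region at its 5′ end (chr12:57240347-57240749) had 342, 266 and 377 bases in WT, 271, 266 and 228 in KO1, and 201, 0 and 318 in KO2. These groups overlapped, and 1 KO2 library lacked the peak. No library had a peak within 1 kb of the canonical NDUFA4L2 start.

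CA9 (ENSG00000107159.14, chr9:35673928-35681159), the cell-surface carbonic anhydrase used as a marker of HIF activity, had 4284 ± 421.9 bases in WT and 3926 ± 175.2 in KO, a log2 difference of -0.12 (SE 0.07, limma adjusted p = 0.249). SLC2A1 (ENSG00000117394.24, chr1:42925353-42958893), the glucose transporter GLUT1, had 7075 ± 596.6 in WT, 7484 ± 566.1 in KO and 7930 ± 420.4 in rescue, which overlapped. CCND1 (ENSG00000110092.4, chr11:69641156-69654474), cyclin D1, had 2618 ± 180.1, 2673 ± 155.3 and 2721 ± 222.2 bases. Inside this even total, the region over its last exon with the 3′ UTR (chr11:69654455-69655309), singled out after its values were seen, covered 490.0 ± 110.1 bases in WT, 711.5 ± 64.0 in KO and 795.8 ± 32.2 in rescue.

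Between rescue and KO, 38.1% of all loci were called by limma (30.6% higher and 7.48% lower in rescue) and 0 of the 10 members. An unadjusted limma p under 0.05 was found for 2 members (EGLN3 and NDUFA4L2), and exact permutation per locus, adjusted over all loci, called 0 as well. The median log2 difference was 0.011 for the members and 0.097 for all loci. The directions of small differences depend on the scale. When each library was scaled to the same total length under peaks, the median of all loci between KO and WT went from -0.007 to -0.111, and the share of called loci that were higher went from 53.9% to 25.5%. The calls over all loci went from 5856 to 11377 of 19541 (2906 higher and 8471 lower). In that scale VEGFA, CA9 and NDUFA4L2 were lower and EGLN3 higher in KO, and HIF1A, EPAS1, CCND1, SLC2A1 and ANGPTL4 turned from above to below 0 without a call. Between rescue and KO the same scaling moved the share of higher calls from 80.4% to 67.6%, and the calls over all loci from 7439 to 8948. Between the clones of a genotype, 3.33% of all loci differed for KO1 against KO2 and 4.19% for Rescue1 against Rescue2, and for the promoter rank described next 2.41% and 1.20% of promoters. At the members 0 of 36 such differences were called.

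**Figure D2:**
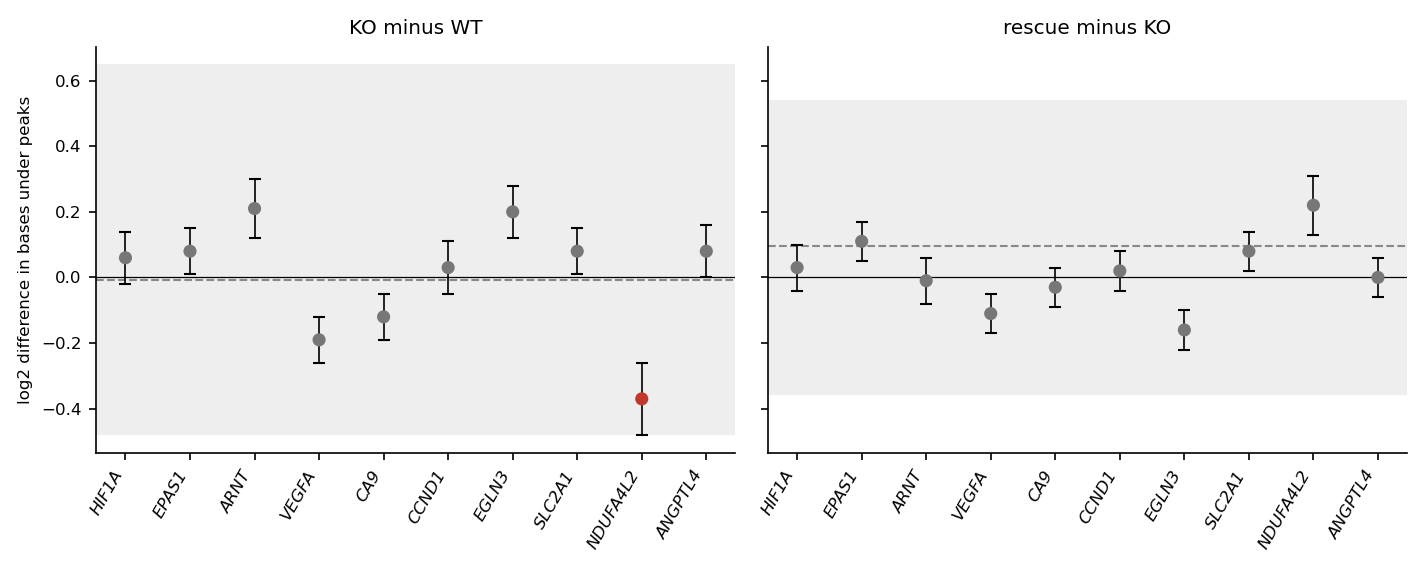
Log2 difference in bases under peaks (y axis) at each locus for KO minus WT (left) and rescue minus KO (right), with bars of 1 standard error; the grey band spans the 5th to 95th percentile of all 19541 loci, the dashed line is their median, and red marks an adjusted p under 0.05. NDUFA4L2 at -0.37 is the single red point, and all members lie inside the band (-0.48 to 0.65 and -0.36 to 0.54).

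The strength of the promoter peak was followed as a rank, the percentile of the strongest peak within 1 kb of the start of the canonical transcript among all peaks of its library by fold enrichment, and 0 where there was no peak. Between KO and WT, 13.4% of 15436 promoters with a peak in at least 3 libraries were called by limma and 0 of the 8 members tested, of which 0 had an unadjusted p under 0.05; CA9 and NDUFA4L2 had no promoter peak and were not tested. Between rescue and KO, 21.8% of promoters were called, 2448 of 3360 of them lower, and 2 of the 8 members were called, both higher, against 5.91% of all promoters that were higher. Between rescue and WT, the added comparison, 15.4% were called (5.30% higher), and of the members VEGFA and CCND1, both higher.

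EGLN3 had the highest promoter rank of the members in every genotype (91.1 ± 2.90 in WT, 90.8 ± 2.81 in KO, 92.8 ± 2.98 in rescue), followed by ARNT and HIF1A, whose WT values of 82.5 ± 1.44 and 80.0 ± 2.62 lie within their spread of each other. EPAS1 (51.1 ± 2.39) and SLC2A1 (45.6 ± 4.06) came next in WT, with SDs that do not bridge the gap to the pair above. VEGFA, CCND1 and ANGPTL4 ranked lowest in WT, and in rescue the mean of VEGFA (46.5 ± 3.71) passed that of SLC2A1 (38.7 ± 6.47).

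At the VEGFA promoter the rank was 20.2, 29.7 and 23.0 in WT, 20.4, 37.4 and 28.5 in KO1, 37.4, 33.1 and 37.7 in KO2, 46.6, 42.6 and 42.3 in Rescue1, and 48.2, 47.4 and 52.1 in Rescue2. All 6 rescue libraries ranked above all KO and WT libraries, while KO and WT overlapped. The rise from KO to rescue was 14.1 percentile points (SE 3.18, limma adjusted p = 0.00591; two-sided exact permutation p = 0.00216, the smallest this design allows), and from WT to rescue 22.2 points (SE 3.90, limma adjusted p = 0.00119; 9.43 points and limma adjusted p = 0.0669 with peaks ranked by -log10 q). With peaks ranked by -log10 q the difference from KO was 7.1 points and not called (limma adjusted p = 0.0786), against KO2 alone it was 10.5 points (limma adjusted p = 0.111), and with Rescue1 alone 11.4 points (limma adjusted p = 0.0619). The lists differ in length, and with the 150000 strongest peaks of each library it was 12.6 points (limma adjusted p = 0.00984).

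At the CCND1 promoter the rank was 13.7, 12.9 and 13.2 in WT, 22.2, 8.30 and 19.2 in KO1, 13.3, 33.1 and 8.77 in KO2, 30.9, 53.5 and 30.9 in Rescue1, and 37.7, 25.4 and 26.7 in Rescue2. All rescue libraries stood above WT, and KO2 replicate 2 reached into the rescue range. The rise from KO to rescue was 16.7 points (SE 5.03, limma adjusted p = 0.0281). It was lost when any 1 of 5 libraries was left out, KO1 replicate 2, KO2 replicate 1 or 3, Rescue1 replicate 2 or Rescue2 replicate 1 (limma adjusted p = 0.0614 to 0.071). Against KO2 alone it was 15.8 points (limma adjusted p = 0.126). It was also not called with the 150000 strongest peaks of each library, which gives lists of equal length (7.81 points, limma adjusted p = 0.137), or with peaks ranked by -log10 q (10.3 points, limma adjusted p = 0.127). From WT to rescue the rise was 21.0 points (SE 6.16, limma adjusted p = 0.0325). That call was lost without any 1 of the WT libraries (0.08 to 0.0959), Rescue1 replicate 2 (0.0556) or Rescue2 replicate 1 (0.0594), each a limma adjusted p. The same held with 150000 peaks per library (0.197), ranks by -log10 q (0.294) or no filter on low promoters (0.0648).

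The ANGPTL4 promoter had no peak in the 3 WT libraries and a weak one in all 6 KO libraries, with ranks of 3.98, 3.41 and 12.6 in KO1 and 0.970, 2.57 and 2.79 in KO2. It was present in 5 of 6 rescue libraries, with ranks of 2.35 to 10.3. Peaks this low are near the foot of each list, the difference of 4.39 points was not called (SE 3.65, limma adjusted p = 0.507), and with the start taken at the 5′ end of the gene record, where all 15 libraries had a peak, the difference was -13.2 points (limma adjusted p = 0.00479). With peaks ranked by -log10 q it was 24.1 points (limma adjusted p = 0.0271), so the 2 called alternatives have opposite signs and no direction is given for ANGPTL4.

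**Figure D3:**
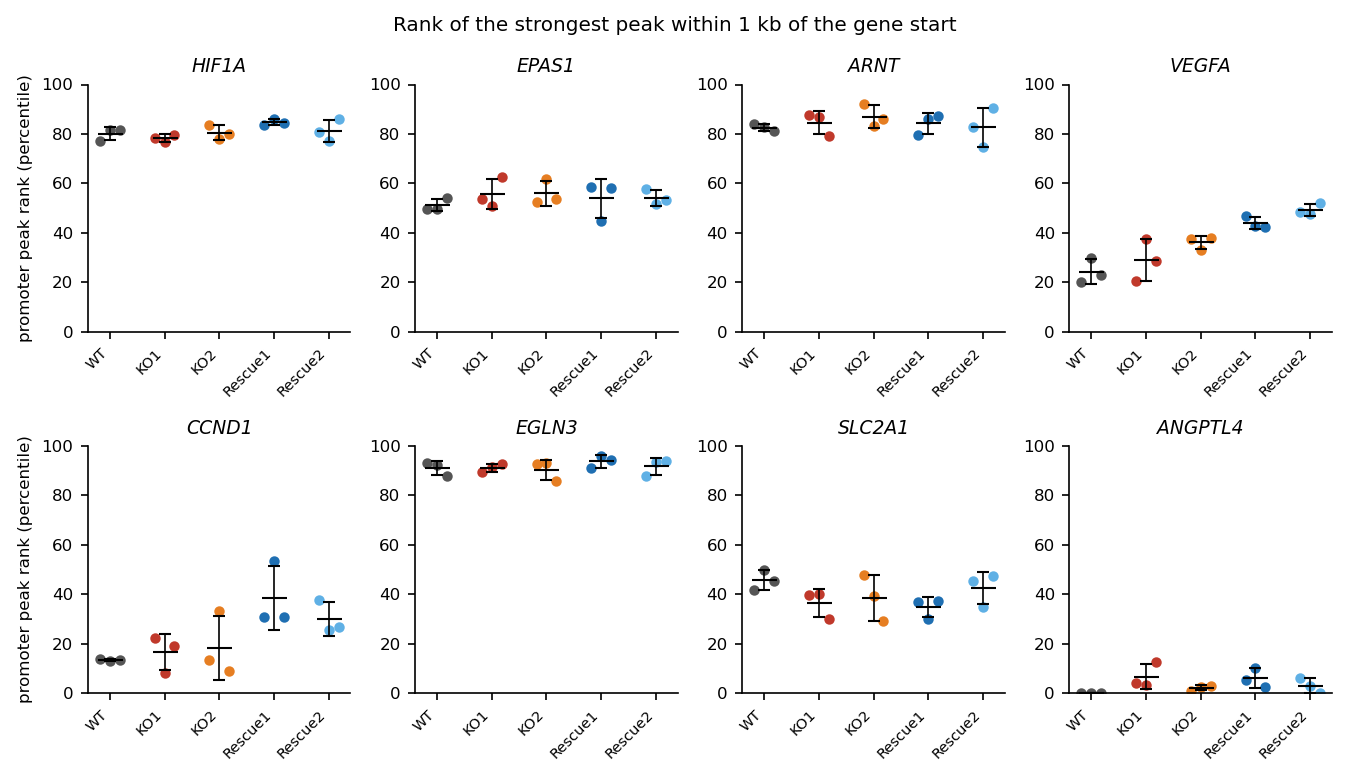
Promoter peak rank (y axis, percentile within the library, 0 to 100) for the 8 members with a promoter peak, by group (x axis); dots are libraries and bars the mean and SD of 3. VEGFA rises to 42.3 to 52.1 in the rescue libraries from 20.2 to 37.7 in WT and KO, while EGLN3, ARNT and HIF1A stay between 74.9 and 96.0.

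Presence and absence of single regions differed at 6 of the 10 loci. A region was gained when all 6 KO and 0 of 3 WT libraries had a peak in it, and lost in the opposite case. At the 10 loci 11 of 233 regions were gained (4.72%) and 6 were lost (2.58%); of all merged regions 4.79% were gained and 2.48% lost, so the shares pooled over the 10 loci are near the background. The gains were unevenly spread between EGLN3 and the other loci, as given below. HIF1A, ARNT, VEGFA and NDUFA4L2 had none. Between rescue and KO, 4 regions at the loci were lost (1.72%, against 1.24% of all regions) and 0 gained (against 0.910%). These calls have no p-value, as presence was read directly.

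The gains outside EGLN3 numbered 4 and the losses 3. EPAS1 lost an intron 1 region 29.1 kb from the start (chr2:46326356-46326510, median percentile 6.72) that no rescue library regained. SLC2A1 gained a region 19.7 kb upstream (chr1:42978365-42978979), with 101 to 538 bases in KO and 465 to 598 in rescue. ANGPTL4 gained the exon 1 region given above among the sequences (chr19:8364331-8364557). SLC2A1 and ANGPTL4 kept their gained region in the rescue clones, with 1 Rescue2 library lacking that of ANGPTL4.

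At CA9 the final exon, which holds the 3′ UTR, carried a region with 81 to 231 bases in the 6 KO libraries (chr9:35680835-35681070), and 0 of 3 WT and 0 of 6 rescue libraries had it. The other CA9 window call was a loss at the promoter of the neighbouring TPM2, a tropomyosin (chr9:35689829-35690295), seen in 3 of 3 WT libraries and in no KO or rescue library. CCND1 lost a short intron 1 region (chr11:69642774-69642862) that ranked no higher than percentile 2.11 of any list. Of the 6 losses at the 10 loci, 3 had a peak in no rescue library, those at EPAS1, CA9 and CCND1.

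**Figure D4:**
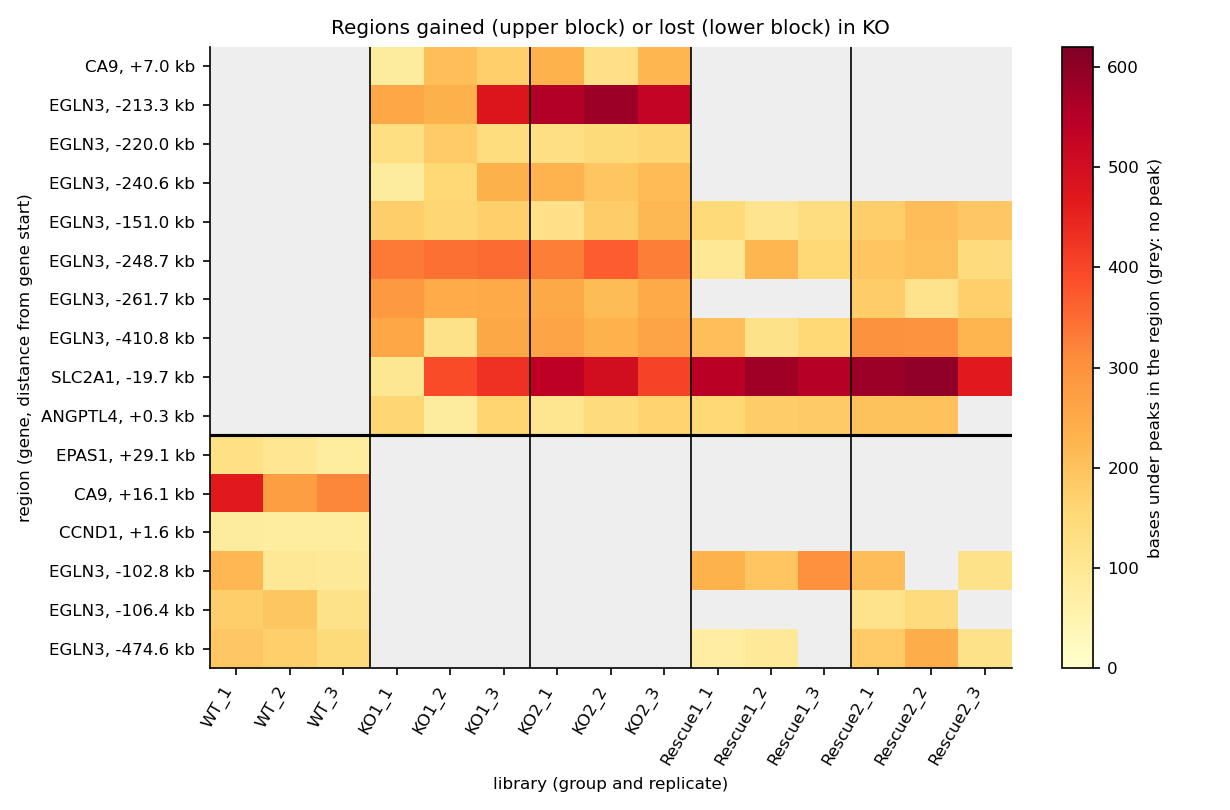
Bases under peaks (colour, grey for no peak) in each library (x axis) for 10 of the 11 regions gained and the 6 lost in KO at the 10 loci (y axis, gene and distance from the gene start in kb). The 4 top rows, 3 of EGLN3 and 1 of CA9, are grey in WT and in all 6 rescue libraries.

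EGLN3 held 10 of the 17 calls, 7 gained and 3 lost among its 74 regions, all upstream of the canonical start. Outside EGLN3, 4 of 159 regions were gained and 3 lost, where 4.79% of all merged regions were gained and 2.48% lost. Whether EGLN3 differs from the other loci in this was not tested. The gains at 213.3, 220.0 and 240.6 kb (chr14:34164179-34164762, chr14:34170998-34171181 and chr14:34191510-34191745) were present in 6 of 6 KO libraries and in 0 of 6 rescue libraries. The first of them ranked at percentile 64.5 to 96.1 of its lists, with 255, 233 and 479 bases in KO1 and 554, 582 and 528 in KO2. These 3 neighbours thus appeared and disappeared together, as did the CA9 region. This pattern took 4 of the 233 regions (1.72%), against 0.818% of all merged regions, and 4 of the 11 gained regions, against 2413 of 14118 gained regions genome-wide.

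The gains at 151.0, 248.7 and 410.8 kb (chr14:34101941-34102160, chr14:34199571-34199953 and chr14:34361697-34362010) stayed in all 6 rescue libraries, and that at 261.7 kb (chr14:34212622-34212928) stayed in Rescue2 only, in 3 of 3 libraries. At 248.7 kb the length under peaks was 342.7 bases on average in KO and 169.3 in rescue. The losses at 102.8, 106.4 and 474.6 kb (chr14:34053722-34054022, chr14:34057390-34057584 and chr14:34425533-34425805) were regained in 5, 2 and 5 of 6 rescue libraries, with the middle one absent from Rescue1. The 2 rescue clones thus differed at 2 of the 10 EGLN3 regions in the sense that 1 clone had no peak in any library, which was not tested.

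**Figure D5:**
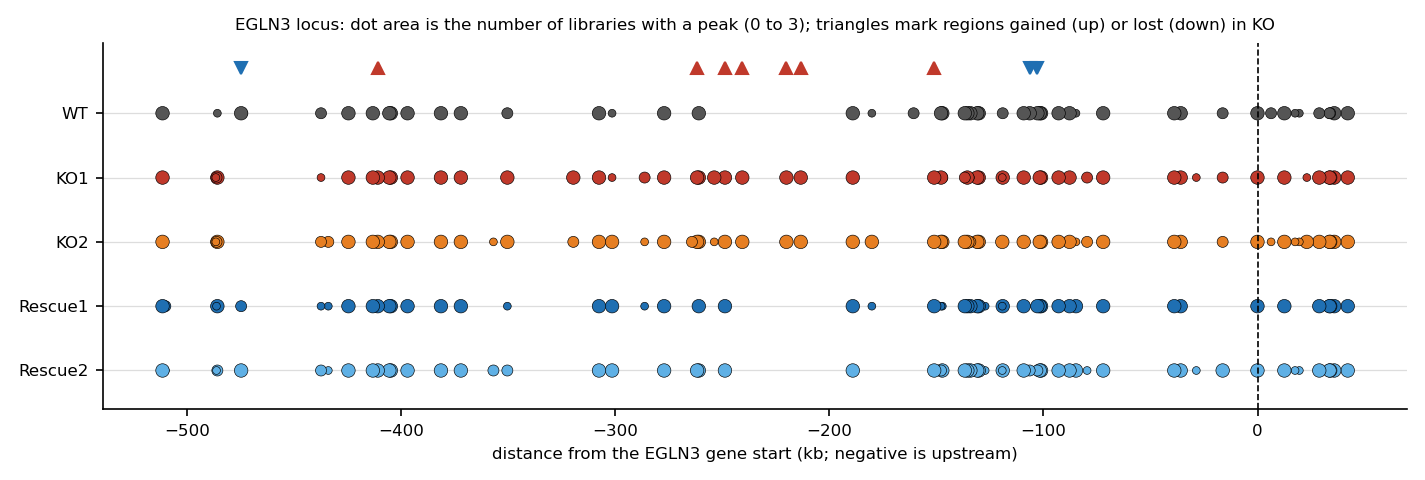
Occupancy of the 74 EGLN3 regions by distance from the gene start (x axis, kb, negative upstream) in each group (y axis); dot area is the number of libraries with a peak, 0 to 3, and triangles mark gains (up) and losses (down) in KO. Between 213.3 and 240.6 kb upstream, dots appear in KO1 and KO2 only.

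By position, 35 of the 233 regions lay at a promoter of some protein-coding gene, 17 over other exons, 69 in introns, 61 upstream of a canonical start inside the gene record and 51 outside protein-coding genes. Occupied in all 15 libraries were 19 of the promoter regions, 25 of the intronic regions and 23 of the 61 regions upstream inside a gene record, of which EGLN3 holds 57.

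The wider hypoxia pathway was read from 77 other genes of HIF regulation and response. Between KO and WT 21 of 77 were called (27.3%, against 30.0% of all loci), 15 higher and 6 lower, and between rescue and KO 23 (29.9%, against 38.1%), 19 higher and 4 lower. The median log2 difference was 0.039 for the list and -0.007 for all loci in the first comparison, and 0.093 and 0.097 in the second. Scaled to the same total length, KO against WT gave 13 higher and 28 lower (53.2% called), where 2906 of all 19541 loci were higher and 8471 lower.

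The list's largest log2 differences between KO and WT were those of KDR and ANGPT2, followed by CXCR4 and FLT1. At KDR, the main VEGF receptor, the covered length went from 256 ± 93.6 bases in the 3 WT libraries to 2504 ± 236.2 in the 6 KO and 1831 ± 310.7 in the 6 rescue libraries (SD). It rose by 2.58 on the log2 scale in KO (SE 0.13, limma adjusted p = 5.26e-14) and fell by 0.42 in rescue (limma adjusted p = 0.00252). FLT1, the decoy-type VEGF receptor, rose from 922 ± 172.7 to 2197 ± 330.7 bases (log2 difference 1.10, limma adjusted p = 2.4e-06) and fell in rescue to 1686 ± 382.1 (limma adjusted p = 0.0194). ANGPT2, a destabiliser of vessels, rose from 203 ± 119.3 to 1716 ± 431.4 bases (log2 difference 2.26, limma adjusted p = 5.2e-13) and stood at 2034 ± 268.8 in rescue. Beside these rises, the endothelial markers PECAM1, TEK and VWF had a promoter peak in no library, and CDH5 had one in all 15. Of the 11 genes for vessels, iron and blood 5 were higher and 1 lower in KO, where 16.2% of all loci were higher and 13.8% lower.

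Of the 8 genes called in both comparisons, 4 were lower in KO and higher in rescue, 3 were higher in KO and lower in rescue, and NDRG1, a hypoxia-induced differentiation gene, was higher in both. The first 4 were STC1 and STC2 (the stanniocalcins), EP300 (a HIF coactivator) and TGFA (an EGF receptor ligand). The share of all loci called in both comparisons, or in opposite directions, was not taken. Both comparisons also use the same KO libraries, so these counts only describe the list. STC1 went from 2157 ± 265.6 bases in WT to 1252 ± 236.8 in KO and 1857 ± 283.2 in rescue, a fall of 0.71 (limma adjusted p = 5.29e-06) and a rise of 0.51 on the log2 scale (limma adjusted p = 2.79e-05). EP300 went from 3007 ± 41.5 to 2457 ± 276.2 and 3250 ± 203.8 bases. The 3 others were KDR, FLT1 and HMOX1, the haem oxygenase, which rose by 0.32 in KO (limma adjusted p = 0.000644) and fell by 0.15 in rescue (limma adjusted p = 0.0301). The HMOX1 fall was lost without KO1 replicate 1 or 3, KO2 replicate 1 or 2, Rescue1 replicate 1 or 2 or Rescue2 replicate 1 (limma adjusted p = 0.0512 to 0.0832), and that of FLT1 without KO1 replicate 3 (limma adjusted p = 0.0555). Without WT replicate 1 the KO calls of STC2 and TGFA were lost (limma adjusted p = 0.0708 and 0.0551), and the rescue call of TGFA was lost without KO1 replicate 1 or Rescue2 replicate 1 (limma adjusted p = 0.052 and 0.0507). With KO2 alone the KO call of EP300 was lost (-0.16, limma adjusted p = 0.167), and the rescue call of NDRG1 was lost against KO2 alone (0.15, limma adjusted p = 0.155) and with Rescue1 alone (0.14, limma adjusted p = 0.217). With 150000 peaks per library STC2 lost both calls (limma adjusted p = 0.156 and 0.33). The rescue calls of STC1 (0.37, limma adjusted p = 0.0877) and HMOX1 (limma adjusted p = 0.056) were lost there too. With Rescue1 alone those of FLT1, STC2 and TGFA were lost (limma adjusted p = 0.251, 0.134 and 0.107). With Rescue2 alone that of HMOX1 was lost, and against KO2 alone that of TGFA (limma adjusted p = 0.538 and 0.0575).

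Among genes called between KO and WT and not between rescue and KO, CXCR4, a chemokine receptor, rose by 1.27 on the log2 scale (661 ± 261.7 to 1847 ± 372.5 bases), LOXL2, a matrix lysyl oxidase, by 0.40 and USP20, a deubiquitinase, by 0.36, while DDIT4, an inhibitor of mTOR signalling, fell by 0.37. Among those called between rescue and KO and not between KO and WT, KDM4B, a histone demethylase, rose by 0.39, PGF, a VEGF family ligand, by 0.36, CREBBP, a HIF coactivator, by 0.35 and PGK1, a glycolytic kinase, by 0.33, and CITED2, a competitor of HIF for its coactivators, fell by 0.30. Of 20 glycolysis genes 4 were higher and 0 lower in KO, and again 4 and 0 in rescue, where 16.2% of all loci were higher in KO and 30.6% in rescue.

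Of the 3 members called between KO and WT or between rescue and KO, NDUFA4L2 was called on bases, and VEGFA and CCND1 on promoter rank only. Similarity to other loci was taken on log2 bases, which is not the measure called for VEGFA and CCND1. The loci over 1 Mb away with the most similar profile over the 15 libraries are given as a description. They were LTA (Pearson r = 0.929) and LRRC25 (r = 0.924) for VEGFA, the unnamed gene ENSG00000285269 (r = 0.920) and IQCJ-SCHIP1 (r = 0.906) for CCND1, and PGGHG (r = 0.912) and IFITM5 (r = 0.894), whose windows overlap, for NDUFA4L2. Such points share the differences between libraries in total length under peaks.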

How the data were processed

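ATAC-seq peak lists of 15 RPTEC libraries (5 groups of 3, grouped by the genotype label) were used. The submitters' processing notes name BWA 0.7.17, MACS2 2.2.7.1, DiffBind 2.14.0 and hg38. The authors called peaks per library, and each deposited list gives, beside coordinates, a score, a fold enrichment ratio over the library's own background, a -log10 p-value and a -log10 q-value. The lists hold no read counts, so no counting interval is given, and the depth metrics of the paper's supplement were not used. All 99 contig names were found in the reference genome and 0 peaks passed a contig end.

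Peaks on the main chromosomes were merged across libraries (1 bp of overlap) and regions with a peak in at least 2 libraries kept (median width 244 bases). Bases under peaks per locus (gene body plus 20 kb, pseudocount 200 bases, loci with a peak in at least 3 libraries) and promoter peak ranks were fitted with limma 3.58.1 in R 4.3.3 as 5 group means, with a trend of the spread with the mean and Benjamini-Hochberg adjustment over all loci. KO pooled KO1 and KO2, and rescue pooled both rescue clones. Single loci also had two-sided exact permutation tests over libraries (84 splits for KO against WT, 924 for rescue against KO). On simulated data for KO against WT with 19541 loci, of which 200 were changed, the fit recovered 81% of changes of 0.5 and 99% of changes of 1 on the log2 scale. Of its 190 calls 10 were false. The simulated libraries were independent draws without differences between clones. Changes as small as those at the 10 loci were not simulated, so recovery of such changes is not known. Gene starts are those of the GENCODE v44 canonical transcript, a choice made after values at the 5′ ends of the gene records were seen. Regions within 1 kb of a protein-coding start were called promoter regions.

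Members and gene lists were chosen with earlier results of these data known. Named in the text are the 10 members, every gained or lost region, member promoters, the most changed region of a called locus, wider-list genes called in both comparisons and otherwise up to 5 per comparison with the largest log2 difference, and the 2 most similar loci of a called member; exceptions are marked, and 1 gained region and 1 marker gene are not reported here. Same-numbered libraries did not pair: their deviations from the group means correlated at -0.159 to 0.0503.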

Additional observations from a re-analysis of the deposited data

Results flagged for a closer look

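In groups of 6, a library was marked when its gap to the nearest other exceeded Dixon's 95% critical value as a share of the group's range, a rule that chance alone meets in about 1 of 20 groups; 36 groups were examined over the members' bases under peaks and promoter ranks, and 2 were marked. At VEGFA, KO2 replicate 3 stood apart from the other KO libraries with 3848 bases under peaks, a gap of 0.716 of the range. This is the KO library with the most peaks. Without it VEGFA joined NDUFA4L2 among the loci called lower in KO. At the ANGPTL4 promoter, KO1 replicate 3 stood apart with a rank of 12.6, a gap of 0.741 of the range. None of the 36 differences between KO1 and KO2 or between Rescue1 and Rescue2 at the members passed limma's adjusted p of 0.05.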

How the results depend on the processing

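The cause of each change given here was not tested, beyond what an alternative's own construction changes. Of the 10 loci, 1 was called on bases under peaks between KO and WT. The count was 2 with pseudocounts of 50 or 1000 bases, without a filter on low loci and with the 150000 strongest peaks per library. It was also 2 with peaks at a -log10 q of at least 3 and with KO2 alone. With 5 kb flanks it was 3, with 50 kb flanks 4 and after scaling to the same total length 4. Exact permutation tests adjusted over all loci called 0. They could call no locus, as the smallest p this design allows, 0.0238, became 0.0941 after adjustment. Leaving out 1 library gave 1 to 2. Between rescue and KO, 0 were called, against 2 scaled, 3 with 150000 peaks, 2 at a -log10 q of at least 3, 1 with 5 kb, 3 with 50 kb and 1 with Rescue1 alone; leaving out 1 library gave 0 to 2. For promoter ranks between KO and WT, 0 were called, against 1 with the start at the 5′ end of the gene record (added after seeing the data) and 1 ranked by -log10 q, both ANGPTL4 but with opposite signs (-13.2 and 24.1 points); leave-one-out gave 0. Between rescue and KO, 2 were called, against 0 ranked by -log10 q, 0 against KO2 alone, and 1 each with 150000 peaks, without the filter, with Rescue1 alone and with Rescue2 alone; leave-one-out gave 1 to 2. The wider list went from 21 to 41 scaled (leave-one-out 16 to 24) and, for rescue, from 23 to 14 against KO2 alone and 13 with Rescue1 alone (leave-one-out 16 to 37). Scaling took the KO calls over all 19541 loci from 5856 to 11377. With presence set by a majority of libraries, 45 in place of 17 regions were gained or lost in KO and 22 in place of 4 in rescue. The share of all merged regions called by the majority rule was not taken, so these counts have no background. Leave-one-out with the all-or-none rule gave 17 to 20 and 4 to 6.

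Of 1392 alternatives for single genes 74 changed direction, and in 73 of these neither value passed the threshold; the other was the ANGPTL4 promoter rank with the record start, -13.2 in KO against WT. Log2 differences in bases turned as follows. Scaled to the same total length, KO against WT gave -0.05 for HIF1A, -0.03 for EPAS1, -0.08 for CCND1, -0.03 for SLC2A1 and -0.03 for ANGPTL4, and rescue against KO -0.02 for HIF1A, -0.03 for CCND1 and -0.05 for ANGPTL4. With 150000 peaks KO against WT gave -0.05 for HIF1A, -0.04 for EPAS1, -0.02 for SLC2A1 and -0.04 for ANGPTL4, and rescue against KO -0.10 for HIF1A, 0.08 for ARNT, 0.04 for CA9 and -0.05 for CCND1. With 5 kb flanks CA9 was 0.23 in KO, and in rescue ARNT was 0.01, CCND1 -0.02 and ANGPTL4 -0.07; with 50 kb EPAS1 was -0.01 in KO, and in rescue ARNT was 0.01 and VEGFA 0.03. At a -log10 q of at least 3, ARNT was 0.003 and ANGPTL4 -0.001 in rescue. Single clones gave -0.03 for CCND1 with KO1 alone, -0.03 for CCND1 in rescue against KO2 alone, -0.03 for HIF1A and -0.01 for CCND1 with Rescue1 alone, and 0.02 for ARNT and -0.01 for ANGPTL4 with Rescue2 alone.

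Promoter ranks turned to 0.126 points for EGLN3 with KO1 alone, 0.507 for HIF1A with KO2 alone, -2.72 for SLC2A1 with Rescue1 alone, -1.42 for ANGPTL4 with Rescue2 alone and -0.0366 for SLC2A1 in rescue with 150000 peaks. With the record start EGLN3 was 3.54 in KO and -5.4 in rescue and ANGPTL4 -1.03 in rescue. Ranked by -log10 q, CCND1 was -1.46 in KO, and in rescue HIF1A was -0.0936, EGLN3 -0.79, SLC2A1 -1.04 and ANGPTL4 -3.41. Leaving out 1 library spanned 0 for bases of HIF1A (-0.03 to 0.14) and CCND1 (-0.005 to 0.08) in KO and of HIF1A (-0.01 to 0.08), ARNT (-0.04 to 0.01) and ANGPTL4 (-0.04 to 0.04) in rescue, and for ranks of EGLN3 (-1.91 to 0.916) and HIF1A (-2.14 to 0.151) in KO and of EPAS1 (-3.02 to 0.428), SLC2A1 (-1.25 to 3.39) and ANGPTL4 (-1.03 to 1.54) in rescue.

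Replicate numbers name libraries without pairing them: same-numbered libraries correlated at -0.159 to 0.0503, and 3 of 15 libraries correlated best with their own number. With the replicate number as a block, counts were 1 and 0 for bases, 0 and 2 for promoter ranks, and 19 and 23 for the wider list, and in the added comparison of rescue with WT the EPAS1 call was lost (0.19, limma adjusted p = 0.0568). Peak lists hold no read depth, so an absent peak cannot be told from a peak below the calling threshold of its library, and weak regions such as those of CCND1 and ANGPTL4 are the least certain.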
